A study of Homo sapiens with 12 samples.

Results

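The protein components of the cytosolic ribosome were examined in 2 human B-cell lines, each with lower (CTRL) or higher (2B17) *UGT2B17* within the line. Members were taken by gene symbol, namely RPL or RPS with a number and at most an A, X or L after it, together with *RPLP0*, *RPLP1*, *RPLP2*, *RPSA* and *FAU*. This rule matched 82 of the 23533 gene identifiers listed in either line, of which 81 were in both lines. Of these, 80 were protein-coding genes tested in both lines, 33 of the small subunit and 47 of the large subunit. The other tested entry is a second *RPL41* identifier, a processed pseudogene on chromosome 7 with 7 to 24 counts per library. The 82nd entry was *RPL3L*, the form of *RPL3* known from muscle, listed only in MEC1 with 0 to 4 counts per library and not tested. *RPL10L*, a testis form, was in neither line's list.

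MEC1 and JVM2 are established lines of neoplastic B cells, and total RNA depleted of ribosomal RNA was sequenced from 3 replicates of each of 4 populations. MEC1-2B17 and JVM2-2B17 cells stably carried the coding sequence of *UGT2B17*, an enzyme that conjugates steroids and other small lipophilic molecules to glucuronic acid, in the pcDNA6 vector and grew in blasticidin. The JVM2 controls (JVM2-CTRL) had received empty pcDNA6 and also grew in blasticidin, whereas the MEC1 controls (MEC1-CTRL) are labelled as stably repressed for *UGT2B17* with an shRNA and grew in puromycin. In MEC1 the level of *UGT2B17*, the construct and the antibiotic therefore changed together and cannot be told apart. Each population stems from 1 transfection as far as the methods say, whether it is a clone is not given in the sources used here, and *P*-values measure only the spread between these replicates.

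Total counts were 31762649 to 37744991 per library in MEC1 and 8809179 to 11231330 in JVM2, and the biological coefficient of variation was 4.22% and 6.92%. *UGT2B17* was at 10.4 to 11.8 CPM (counts scaled to the same total in every library) in MEC1-CTRL and 20.1 to 22.7 in MEC1-2B17, and at 26.2 to 29.8 in JVM2-CTRL and 35.3 to 45.3 in JVM2-2B17. Its log2 difference between the arms was 0.94 (SE 0.069) in MEC1 and 0.48 (SE 0.11) in JVM2. JVM2-CTRL thus had a higher CPM of *UGT2B17* than MEC1-2B17. All 5 B-cell markers examined (*MS4A1*, *CD79A*, *CD79B*, *PAX5* and *CD22*) exceeded 1 CPM in every library, and their summed level was 2034 to 2094 CPM in MEC1-CTRL, 1840 to 1908 in MEC1-2B17, 1199 to 1226 in JVM2-CTRL and 1142 to 1371 in JVM2-2B17. These sums hide opposite changes of single markers, since in MEC1 *MS4A1*, *PAX5* and *CD79B* fell (-0.58, -0.17 and -0.12 on the log2 scale) and *CD22* and *CD79A* rose (0.36 and 0.28). In JVM2 *MS4A1* and *CD22* rose (0.40 and 0.38) and *CD79A* fell (-0.39). The summed level of the T-cell markers was 0.815 to 1.28 CPM in MEC1-CTRL and 2.25 to 2.45 in MEC1-2B17, and none was listed in JVM2. *CD247* made up most of it, at 0.684 to 0.988 CPM and then 1.90 to 2.11, while *CD3E*, *CD3G* and *CD8A* were at no more than 0.207 CPM in any library and *CD3D* was not listed. Monocyte markers summed to at most 1.70 CPM in any library, and erythroid markers were listed in neither line. The part of these shifts in the results was not tested.

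A ribosome is built from 2 subunits, a small one that reads the mRNA and a large one that forms the peptide bond, each made of ribosomal RNA and many small basic proteins. Most of these proteins are needed in equal numbers, and their mRNAs are among the most abundant of a dividing cell. The mRNAs typically begin with a terminal oligopyrimidine (TOP) tract, a C followed by a run of C and T. Through this tract the mTOR pathway and the RNA-binding protein LARP1 control their translation and stability. Lymphoid cells that enter growth make more ribosomes, and MYC raises the transcription of many of the genes involved.

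The TOP tract is shown here for the genes that the results below turn on, the genes of the long arm of chromosome 9 and those at either end of the range of change. Windows of 30 bases, 10 before and 20 from the annotated start of transcription, were read on the strand of the gene from RefSeq promoters (GRCh38.p14). Capitals mark a C at the first transcribed base with the unbroken run of C and T that follows, and all letters are lower case where there is no such tract.
RPL35 (chr9:124861938-124861967, minus strand): cgcctacttcCTCTTTCCCTCggagcgggc
RPL12 (chr9:127451387-127451416, minus strand): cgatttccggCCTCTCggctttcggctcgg
RPL7A (chr9:133348208-133348237, plus strand): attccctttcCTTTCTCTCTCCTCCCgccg
RPS12 (chr6:132814559-132814588, plus strand): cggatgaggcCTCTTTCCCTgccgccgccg
RPS18 (chr6:33272065-33272094, plus strand): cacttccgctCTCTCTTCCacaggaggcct
RPS3A (chr4:151099618-151099647, plus strand): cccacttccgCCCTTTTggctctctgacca
RPL28 (chr19:55385922-55385951, plus strand): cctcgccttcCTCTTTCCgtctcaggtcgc
RPLP1 (chr15:69452808-69452837, plus strand): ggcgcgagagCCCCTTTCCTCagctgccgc
RPL10 (chrX:154398055-154398084, plus strand): ccactctcagaaatatacgtctgtcacagt
The tracts of the 8 genes with one ran from 6 bases in *RPL12* to 16 in *RPL7A*. Of the 80 genes, 64 had a promoter in the RefSeq table, and 43 of these (67.2%) began with C and at least 4 further bases that were each C or T, against 4.04% of all 27305 promoters. A run of at least 6 such bases that at least partly overlapped the stretch from 10 bases before to 10 after the start was also counted. It was present in 54 of 64 (84.4%) and in 30.7% of all promoters. *RPL10* had such a run, which began before the window shown. It had no tract at the start used, which lies inside its annotated span of 154389955 to 154409168. Other starts were not examined, so a split of genes by the tract also depends on which start is annotated. Genes with the tract at the annotated start differed between 2B17 and CTRL by a median of 0.10 (MEC1) and 0.43 (JVM2) on the log2 scale (n = 43), and those without it by 0.14 and 0.40 (n = 21). The interquartile ranges of these groups overlapped in both lines, and the difference between them was not tested.

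Ribosomal protein genes took a larger share of the library in 2B17 than in CTRL cells of both lines. In MEC1-CTRL replicates 1, 2 and 3 they held 8.46%, 8.54% and 8.46% of all counts, and in MEC1-2B17 9.12%, 9.20% and 9.14%, or 8.49% ± 0.0485 against 9.15% ± 0.0431 (SD, n = 3). The JVM2-CTRL replicates held 7.52%, 7.16% and 7.15%, and the JVM2-2B17 replicates 9.91%, 9.94% and 9.35%, or 7.28% ± 0.210 against 9.73% ± 0.334 (SD, n = 3). In neither line did the arms overlap, and an exact permutation test of 3 libraries against 3 cannot give a *P* below 0.1. JVM2-CTRL was the population with the lowest share and JVM2-2B17 the one with the highest. These shares are relative to the other transcripts of a library, and more ribosomal protein mRNA per cell and less of other mRNA cannot be told apart.

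**Figure D1:**
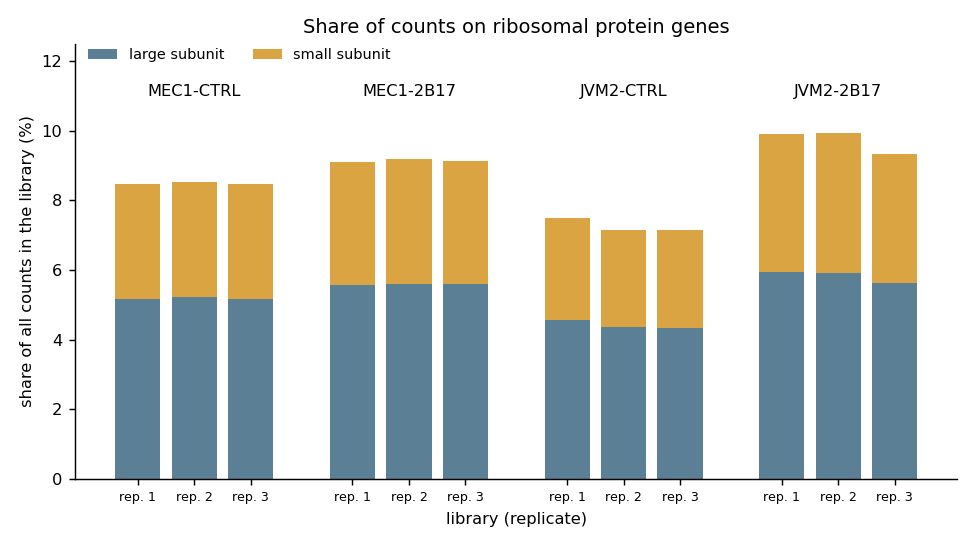
Share of all counts of each library that fell on ribosomal protein genes, in percent, with the large subunit below and the small subunit above in each bar, for 3 replicates of each population. Every 2B17 library stood above every CTRL library of its line, by a wider margin in JVM2 (9.35% to 9.94% against 7.15% to 7.52%) than in MEC1 (9.12% to 9.20% against 8.46% to 8.54%).

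The balance between the subunits was close to constant in MEC1 and moved in JVM2. The counts on the small subunit divided by those on the large subunit were 0.638, 0.637 and 0.634 in MEC1-CTRL and 0.640, 0.642 and 0.636 in MEC1-2B17, ranges that overlapped. In JVM2-CTRL the ratio was 0.647, 0.645 and 0.648 and in JVM2-2B17 0.671, 0.680 and 0.664, with all 3 libraries above those of the controls.

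In MEC1, 56 of the 81 members tested were higher in 2B17 than in CTRL cells, 3 were lower and 22 were not called at an adjusted *P* below 0.05 (edgeR quasi-likelihood test, Benjamini-Hochberg adjustment over the 16581 genes tested). Of all genes tested in MEC1, 20.0% were called higher and 21.6% lower, or 41.7% in either direction. With edgeR's exact test 37 members were called higher. Of the genes described below, the MEC1 rises of *RPS3A*, *RPS27A*, *RPS28*, *RPS3*, *RPSA* and *RPL22* missed the threshold in that test (adjusted *P* = 0.051, 0.058, 0.08, 0.086, 0.095 and 0.16). The median log2 fold change of the members was 0.12, a 1.08-fold difference, against 0.0026 for all genes, their interquartile range was 0.07 to 0.16, and no member called was over 1.3-fold in either direction, against 17.7% of all genes. Every MEC1-2B17 library lay above every MEC1-CTRL library for 66 members, which 24.3% of all genes did, and below for 4, which 25.9% did.

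In JVM2, 76 of 81 members were higher in 2B17 cells and 5 were not called, while 14.1% of the 13021 genes tested in JVM2 were called higher and 15.3% lower, 29.3% in all. None was lower, by edgeR or by DESeq2, also at an unadjusted *P* below 0.05, and the log2 fold changes of all 81 were above 0. Their median was 0.42, a 1.33-fold difference, against 0.00012 for all genes, with a range of 1.09-fold to 1.69-fold. The rise of 51 members was called and over 1.3-fold, as for 8.36% of all genes. Arms did not overlap for 77 members, with all JVM2-2B17 libraries above, as for 21.6% of all genes. The third replicate of JVM2-2B17 had a smaller median difference from the control mean (0.34 on the log2 scale) than the other two (0.44 each).

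By subunit, all 33 small-subunit genes rose in JVM2 by a median of 0.44 on the log2 scale, and in MEC1 24 rose, 9 were not called and the median was 0.12. Of the 48 large-subunit entries 43 rose in JVM2 (median 0.41), and in MEC1 32 rose and 3 fell (median 0.11). The upper end of the JVM2 range was made of small-subunit genes: the 75th percentile was 0.57 for the small and 0.45 for the large subunit.

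**Figure D2:**
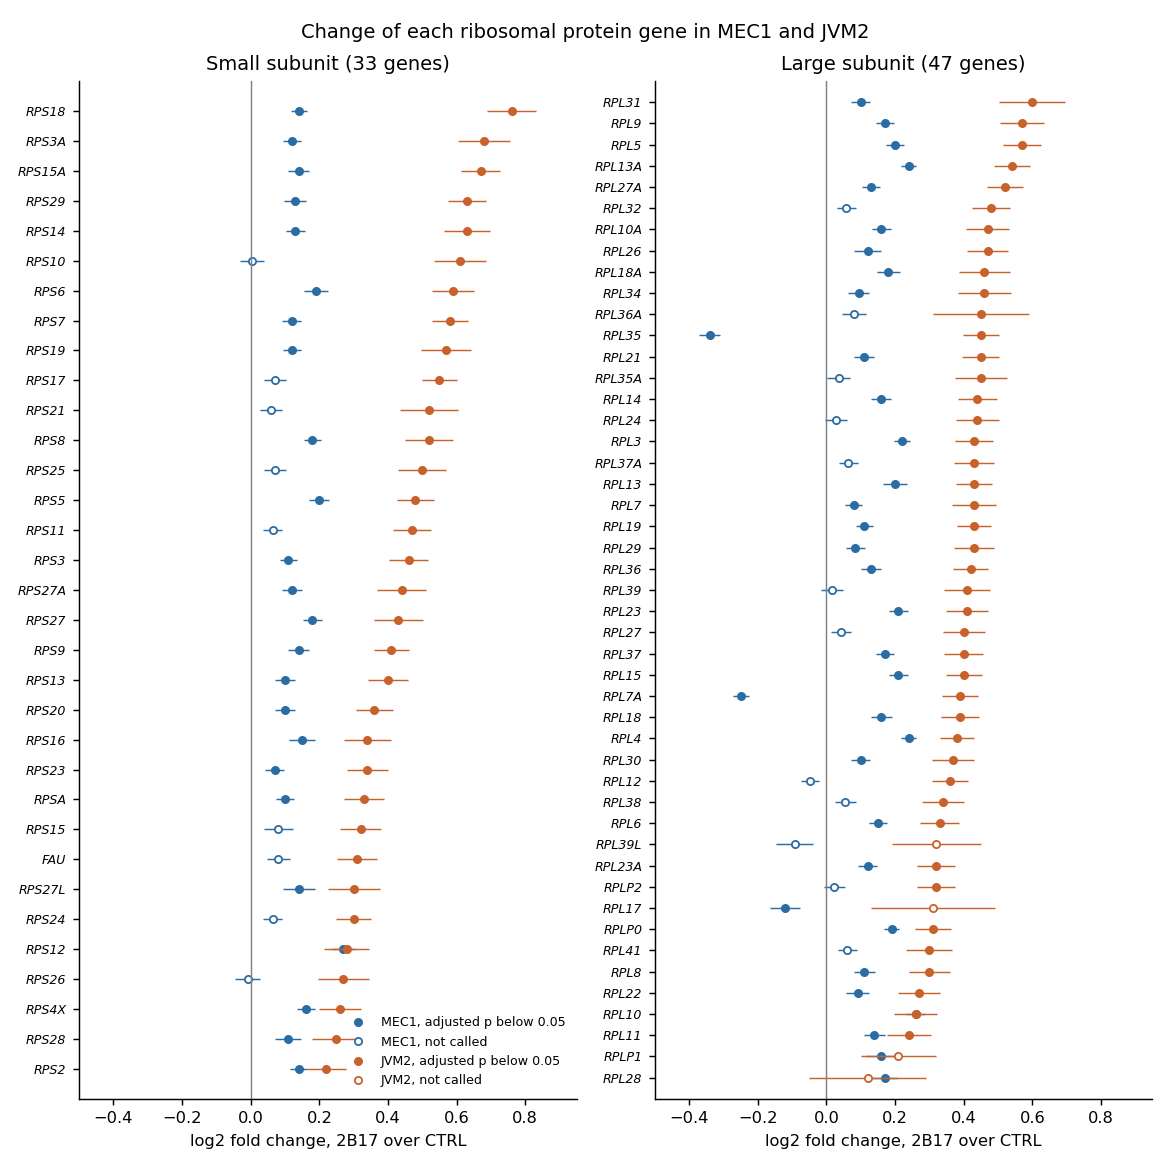
Log2 fold change of 2B17 over CTRL cells with its standard error for each of the 80 protein-coding ribosomal protein genes, in MEC1 (blue) and JVM2 (orange), by subunit and ordered by the value in JVM2. Filled points have an adjusted *P* below 0.05 (edgeR). All JVM2 points lie above 0, from 0.12 for *RPL28* to 0.76 for *RPS18*, while MEC1 points lie between -0.34 (*RPL35*) and 0.27 (*RPS12*).

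The largest rises in JVM2 were all in the small subunit, in *RPS18*, *RPS3A*, *RPS15A*, *RPS29* and *RPS14*. *RPS18*, a protein of the head of the small subunit, was at 1399, 1347 and 1308 CPM in JVM2-CTRL and 2292, 2531 and 2032 in JVM2-2B17, a log2 difference of 0.76 (SE 0.071, adjusted *P* = 6.4e-06). *RPS3A* went from 1270, 1202 and 1212 to 1968, 2217 and 1735 CPM (0.68, SE 0.076, adjusted *P* = 2.7e-05). *RPS15A* went from 607, 562 and 575 to 955, 948 and 872 CPM (0.67, SE 0.057, adjusted *P* = 2.8e-06). In each of the 3 genes the lowest JVM2-2B17 library was the third replicate, and it was still far above all controls. *RPS29*, which encodes a short zinc-binding protein, rose from 270 ± 3.88 to 417 ± 19.5 CPM (SD, n = 3), and *RPS14*, whose loss of 1 copy underlies the anaemia of the 5q- syndrome, from 863 ± 38.8 to 1335 ± 115 CPM, a log2 fold change of 0.63 for both. In MEC1 these 5 genes rose by 0.12 to 0.14 on the log2 scale.

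A different set led in MEC1, namely *RPS12*, *RPL10*, *RPL4*, *RPL13A* and *RPL3*. *RPS12* was at 522, 544 and 552 CPM in MEC1-CTRL and 661, 662 and 628 in MEC1-2B17 (log2 fold change 0.27, SE 0.034, adjusted *P* = 2.7e-06). *RPL10*, a late-joining protein next to the catalytic centre, was at 1212, 1220 and 1222 CPM and then 1433, 1480 and 1469 (0.26, SE 0.027, adjusted *P* = 1.9e-07). *RPL4* went from 2778, 2783 and 2763 to 3258, 3328 and 3243 CPM (0.24, SE 0.022, adjusted *P* = 5.9e-08). The controls of each gene lay within a narrow band and all 3 MEC1-2B17 libraries were above it. *RPL13A* rose from 2507 ± 19.6 to 2953 ± 4.12 CPM and *RPL3*, which lies at the peptidyl transferase centre, from 2026 ± 21.1 to 2359 ± 11.4 CPM (SD, n = 3). *RPS12* and *RPL10* were the members whose rise was most alike in the 2 lines. In JVM2 *RPS12* rose by 0.28 (SE 0.065, adjusted *P* = 0.0056) and *RPL10* by 0.26 (SE 0.062, adjusted *P* = 0.0069), and the differences between lines were 0.011 (SE 0.076) and -0.004 (SE 0.067).

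In MEC1 the members of the long arm of chromosome 9 stood apart from the rest of the ribosome. *RPL35* (ENSG00000136942, 124857880 to 124861981 on the minus strand of GRCh38), a protein at the rim of the tunnel through which the nascent peptide leaves, was at 1090, 1108 and 1130 CPM in MEC1-CTRL and 891, 893 and 848 in MEC1-2B17, a log2 difference of -0.34 (SE 0.030, adjusted *P* = 3.4e-08). *RPL7A* (ENSG00000148303, 133348218 to 133351426, plus strand), a core protein of the large subunit, was at 2741, 2674 and 2730 CPM and then 2279, 2279 and 2313 (-0.25, SE 0.023, adjusted *P* = 8.0e-08). *RPL12* (ENSG00000197958, 127447674 to 127451406, minus strand), which forms the base of the stalk that recruits translation factors, was at 1444, 1478 and 1473 CPM and then 1393, 1440 and 1419 (-0.048, SE 0.027, adjusted *P* = 0.17). The arms did not overlap for any of the 3 genes, with MEC1-2B17 below, as for 25.9% of all genes tested in MEC1. *RPL12* did not pass the test.

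These 3 genes rose in JVM2 like the other members. *RPL35* stood at 787, 740 and 746 CPM in JVM2-CTRL and 1077, 1018 and 1009 in JVM2-2B17 (log2 fold change 0.45, SE 0.053, adjusted *P* = 4.7e-05). *RPL7A* was at 1505, 1442 and 1440 CPM and then 1962, 1964 and 1811 (0.39, SE 0.052, adjusted *P* = 1.3e-04), and *RPL12* at 1250, 1172 and 1169 CPM and then 1596, 1527 and 1488 (0.36, SE 0.052, adjusted *P* = 2.4e-04). *RPL35* and *RPL7A* were the 2 members called in opposite directions in the lines, as were 7.43% of the 12243 genes tested in both. The log2 fold change was larger in JVM2 than in MEC1 by 0.78 (SE 0.060, adjusted *P* = 3.4e-09) for *RPL35*, 0.63 (SE 0.056, adjusted *P* = 3.1e-08) for *RPL7A* and 0.40 (SE 0.058, adjusted *P* = 1.6e-05) for *RPL12* (interaction of line and arm, edgeR).

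The other genes of that chromosome arm were lower in MEC1-2B17 as well. From 60 Mb onward, 335 of 468 genes tested on chromosome 9 were lower and 14 higher, and the median log2 difference was -0.39. Before 60 Mb, 37 of 162 were lower and 36 higher (median -0.032). For comparison, the MEC1 test called 21.6% of its 16581 genes lower and 20.0% higher. Within 10 Mb of *RPL35*, *RPL7A* and *RPL12* the medians of the other genes were -0.38, -0.38 and -0.39, so that *RPL35* lay 0.04 above its neighbours and *RPL12* 0.34 above. In JVM2 the same stretch was balanced, with 40 of 357 genes higher, 38 lower and a median of 0.0048. Over all genes tested in JVM2, 14.1% were higher and 15.3% lower. *RPS6*, the only member on the short arm and a target of S6 kinase, was at 1065, 1040 and 1020 CPM in MEC1-CTRL and 1155, 1261 and 1138 in MEC1-2B17 (0.19, SE 0.036, adjusted *P* = 3.2e-04), and in JVM2 it rose by 0.59 (SE 0.062, adjusted *P* = 1.7e-05). No copy number was measured, and its part in these values was not tested.

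Across the 80 genes, the log2 fold change of a member in MEC1 correlated with the median of the other genes within 10 Mb (Pearson's r = 0.64), but with the 3 genes of the chromosome 9 long arm left out r was 0.16. In JVM2 r was 0.40 with and without them. The 3 members near each other on chromosome 6, *RPS18*, *RPS10* and *RPL10A*, had neighbours with medians of 0.12, 0.12 and 0.11 in JVM2. Members share libraries and some share neighbours, so these correlations only describe the genes.

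**Figure D3:**
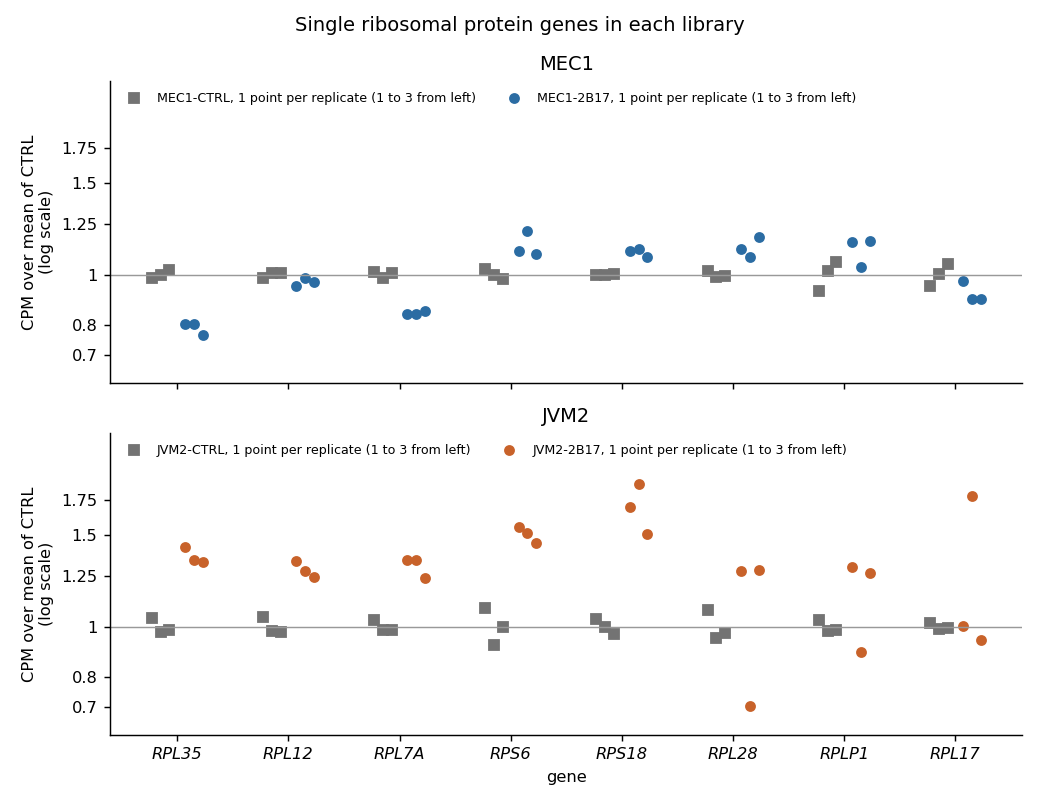
CPM of single ribosomal protein genes in every library, divided by the mean of the CTRL libraries of the line (log scale), in MEC1 (upper panel) and JVM2 (lower panel). In MEC1-2B17 *RPL35* and *RPL7A* lie below all CTRL libraries, and in JVM2-2B17 the second replicate is low for *RPL28* and *RPLP1* and high for *RPL17* while the other two replicates lie together.

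The 2 large-subunit genes at the bottom of the JVM2 range owed their place to a single library. *RPL28* was at 496, 439 and 448 CPM in JVM2-CTRL and 590, 324 and 593 in JVM2-2B17 (log2 fold change 0.12, SE 0.17, adjusted *P* = 0.62), and *RPLP1*, a stalk protein, was at 1114, 1061 and 1065 CPM and then 1405, 967 and 1367 (0.21, SE 0.11, adjusted *P* = 0.18). In both genes replicate 2 of JVM2-2B17 lay below every control and the other replicates above. Without that library the log2 fold changes were 0.36 (adjusted *P* = 2.1e-06) for *RPL28* and 0.36 (adjusted *P* = 6.5e-08) for *RPLP1*. *RPL17*, another protein at the exit of the peptide tunnel, deviated the other way in the same library, at 45.6, 44.3 and 44.5 CPM in JVM2-CTRL and 45.0, 79.7 and 42.3 in JVM2-2B17 (0.31, SE 0.18, adjusted *P* = 0.24). *RPL36A*, picked after its values were seen, was also high in that library. It was at 84.3, 86.0 and 84.3 CPM in JVM2-CTRL and 102, 152 and 93.3 in JVM2-2B17, and was called higher (0.45, SE 0.14, adjusted *P* = 0.029). Relative to the other two replicates, the library was lower by 0.87 for *RPL28* and 0.52 for *RPLP1* and higher by 0.87 for *RPL17* on the log2 scale, while its median over the members differed by 0.057. In the MEC1 and JVM2-CTRL libraries the widest such deviation of a member was 0.18. In MEC1 *RPL28* rose by 0.17 (SE 0.036, adjusted *P* = 7.8e-04) and *RPLP1* by 0.16 (SE 0.045, adjusted *P* = 0.008), the latter with overlapping arms and no call without MEC1-CTRL replicate 1 (0.11, adjusted *P* = 0.052) or MEC1-2B17 replicate 3 (0.14, adjusted *P* = 0.051).

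*RPL17* was also the third member called lower in MEC1, but this call was marginal. It was at 73.5, 77.5 and 81.1 CPM in MEC1-CTRL and 75.3, 69.3 and 69.3 in MEC1-2B17, arms that overlapped (log2 fold change -0.12, SE 0.044, adjusted *P* = 0.042). The call was lost with DESeq2 (adjusted *P* = 0.097), the exact test (0.054), scaling from the other genes (0.053) or no filter on low counts (0.052), and without either of the MEC1-CTRL replicates 2 and 3 or MEC1-2B17 replicates 2 and 3, where the adjusted *P* was 0.1, 0.18, 0.16 and 0.19. *RPL17* shares its exons with a read-through gene, *RPL17-C18orf32*, which is listed in MEC1 and not in JVM2, so its counts depend on how shared reads were assigned.

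Members with further roles followed their subunit in most cases. The stalk, which contacts the elongation factors, is formed by *RPLP0*, *RPLP1* and *RPLP2* on *RPL12*. In MEC1 *RPLP0* rose from 3155 ± 14.7 to 3601 ± 30.7 CPM (SD, n = 3), and in JVM2 its mean went up from 2604 ± 103 to 3238 ± 170 CPM, while *RPLP2* was at 1017 ± 32.1 and 1034 ± 24.7 CPM in MEC1 (adjusted *P* = 0.59) and rose from 560 ± 21.6 to 697 ± 26.0 CPM in JVM2 (adjusted *P* = 9.5e-04). Of the 7 genes at the rim of the exit tunnel 4 rose and 2 fell in MEC1, with *RPL39* not called, and 6 rose in JVM2, with *RPL17* not called. That was 85.7% called in each line, against 41.7% of all genes tested in MEC1 and 29.3% in JVM2. With the exact test none of the 7 was called higher and 1 lower in MEC1. *RPL31*, one of them and picked after its values were seen, had the highest log2 fold change of the large subunit in JVM2 (0.60, SE 0.096, adjusted *P* = 5.4e-04), with libraries at 669, 844 and 609 CPM against 486, 461 and 455.

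*RPL5* and *RPL11* form with the 5S ribosomal RNA a particle that can also bind MDM2 and thereby stabilise p53. *RPL5* was at 1647, 1653 and 1627 CPM in MEC1-CTRL and 1875, 1952 and 1845 in MEC1-2B17 (0.20, SE 0.027, adjusted *P* = 6.1e-06), and at 1345, 1264 and 1287 CPM in JVM2-CTRL and 1982, 1983 and 1803 in JVM2-2B17 (0.57, SE 0.055, adjusted *P* = 8.2e-06). The rise of *RPL11* was 0.14 in MEC1 (SE 0.031, adjusted *P* = 0.0015), against 0.24 in JVM2 (SE 0.064, adjusted *P* = 0.014). The arms overlapped for neither gene in either line, with 2B17 above, as for 24.3% of all genes tested in MEC1 and 21.6% in JVM2. The JVM2 call of *RPL11* was lost without JVM2-CTRL replicate 2 or 3 or JVM2-2B17 replicate 1 (adjusted *P* = 0.069, 0.073 and 0.063).

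*RPS19*, the gene most often mutated in Diamond-Blackfan anaemia, rose by 0.12 (SE 0.027, adjusted *P* = 0.0013) in MEC1 and by 0.57 (SE 0.073, adjusted *P* = 8.9e-05) in JVM2, where its libraries went from 933, 893 and 866 to 1291, 1500 and 1210 CPM. *RPS15*, recurrently mutated in chronic lymphocytic leukaemia, was at 491, 505 and 519 CPM in MEC1-CTRL and 535, 497 and 571 in MEC1-2B17, which overlapped (0.081, SE 0.042, adjusted *P* = 0.14). Without MEC1-2B17 replicate 2 it was called higher (0.14, adjusted *P* = 0.0086). In JVM2 it went from 470, 435 and 431 to 573, 521 and 571 CPM (0.32, SE 0.060, adjusted *P* = 0.0016). *RPSA*, also known as the laminin receptor precursor, rose by 0.10 (SE 0.025) and 0.33 (SE 0.059), and *RPS3*, which lies at the mRNA entry channel, by 0.11 (SE 0.026) and 0.46 (SE 0.057). *RPS2*, its neighbour at that channel, rose by 0.14 (SE 0.025) in MEC1 and by 0.22 (SE 0.057, adjusted *P* = 0.01) in JVM2, one of the lowest JVM2 values. That JVM2 call was lost without JVM2-CTRL replicate 2 or 3 (adjusted *P* = 0.06 and 0.062). *RPS28*, at 343, 326 and 301 CPM and then 411, 346 and 394, was similar (0.25, SE 0.072, adjusted *P* = 0.022), with no call when JVM2-CTRL replicate 2 or 3 or JVM2-2B17 replicate 1 or 3 was left out (adjusted *P* = 0.072, 0.12, 0.091 and 0.062). In MEC1 *RPS28* rose by 0.11 (adjusted *P* = 0.022), with no call when MEC1-CTRL replicate 1 or MEC1-2B17 replicate 3 was left out (adjusted *P* = 0.11 and 0.099).

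*RPS27A* and *FAU* are made as fusions with ubiquitin or a ubiquitin-like protein. *RPS27A* rose in MEC1 by 0.12 (SE 0.029, adjusted *P* = 0.0026) and, more steeply, in JVM2 by 0.44 (SE 0.072, adjusted *P* = 5.8e-04). *FAU* rose in JVM2 (0.31, SE 0.059, adjusted *P* = 0.002) and missed the threshold in MEC1 (0.081, SE 0.034, adjusted *P* = 0.063), which it passed without MEC1-CTRL replicate 3 (adjusted *P* = 0.024) or MEC1-2B17 replicate 2 (adjusted *P* = 0.05). *RACK1*, a scaffold on the small subunit, belongs to the ribosome without matching the naming rule. It rose from 850 ± 14.9 to 958 ± 4.91 CPM in MEC1 (0.17, adjusted *P* = 7.1e-05), and in JVM2 it went from 1601 ± 70.1 to 2001 ± 127 CPM (adjusted *P* = 0.0013).

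Several members have a divergent partner of similar sequence. *RPS27* and *RPS27L*, the second a target of p53, both rose in both lines. In MEC1 the rise was 0.18 for *RPS27* (adjusted *P* = 3.8e-05) and 0.14 for *RPS27L* (adjusted *P* = 0.019). In JVM2 it was 0.43 for *RPS27* (adjusted *P* = 7.9e-04) and 0.30 for *RPS27L* (adjusted *P* = 0.0096). The MEC1 call of *RPS27L* was lost without MEC1-CTRL replicate 1 or MEC1-2B17 replicate 2 (adjusted *P* = 0.075 and 0.061). *RPL39L*, the low-expressed partner of *RPL39*, was at 27.5, 27.5 and 26.3 CPM in MEC1-CTRL and 26.2, 23.9 and 26.2 in MEC1-2B17 (-0.092, SE 0.054, adjusted *P* = 0.19), and at 9.57, 8.40 and 8.70 CPM in JVM2-CTRL and 12.2, 10.9 and 9.84 in JVM2-2B17 (0.32, SE 0.13, adjusted *P* = 0.082). It was thus called in neither line. The arms did not overlap in either, with 2B17 below in MEC1, as for 25.9% of all genes, and above in JVM2, as for 21.6%. *RPL22*, whose loss is known from T-cell leukaemia, rose by 0.091 in MEC1 (adjusted *P* = 0.031) and by 0.27 in JVM2 (adjusted *P* = 0.0056). The MEC1 call was lost with the exact test, with scaling by library size only (adjusted *P* = 0.051) and without MEC1-CTRL replicate 1 or 2 or MEC1-2B17 replicate 1 or 2 (adjusted *P* = 0.095, 0.085, 0.063 and 0.13). *RPL41*, which encodes the shortest ribosomal protein, was not called in MEC1 (0.061, adjusted *P* = 0.08) and rose in JVM2 (0.30, adjusted *P* = 0.0053). Among 6 tested partners named like a member with a suffix, *RPL36AL* rose in MEC1 (0.31, adjusted *P* = 4.4e-06) and was not called in JVM2 (0.11, adjusted *P* = 0.18), and *RPL22L1* rose in JVM2 (0.51, adjusted *P* = 0.013) and was not called in MEC1 (-0.088, adjusted *P* = 0.32). The JVM2 call of *RPL22L1* was lost with DESeq2 (adjusted *P* = 0.092) and without JVM2-CTRL replicate 1 (adjusted *P* = 0.057), and without MEC1-CTRL replicate 1 it was called lower in MEC1 (-0.17, adjusted *P* = 0.035).

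Compared directly, the rise was larger in JVM2. Of the 81 members, 54 were called higher in both lines, against 3.90% of the genes tested in both. Lower calls in both lines, made for 4.48% of those genes, did not occur among the members. With the exact test the number higher in both was 35. The interaction term was larger in JVM2 for 66 members at an adjusted *P* below 0.05, which held for 16.7% of the 15130 genes tested, and its median over the members was 0.30. For no member was the rise significantly larger in MEC1, by edgeR or DESeq2, also at an unadjusted *P* below 0.05, and the term was above 0 for 79 of 81 members, *RPL28* (-0.054) and *RPL10* being the exceptions. *RPS10* was at 253, 247 and 253 CPM in MEC1-CTRL and 247, 253 and 255 in MEC1-2B17 (0.0038, SE 0.034), but at 191, 173 and 176 CPM in JVM2-CTRL and 288, 292 and 243 in JVM2-2B17 (0.61, SE 0.075, adjusted *P* = 6.5e-05), a difference between lines of 0.60 (SE 0.086, adjusted *P* = 1.7e-05). Like *RPL17*, *RPS10* has a read-through gene, *RPS10-NUDT3*, that is listed in MEC1 and not in JVM2. Its counts therefore also depend on how shared reads were assigned. For *RPS18* the lines differed by 0.61 (SE 0.080, adjusted *P* = 5.0e-06) and for *RPS3A* by 0.56 (SE 0.086, adjusted *P* = 4.1e-05). Across the 80 genes the log2 fold changes of the 2 lines were hardly correlated (Pearson's r = 0.054, Spearman's rho = 0.046, genes not being independent), and without the 3 genes of chromosome 9 r was 0.065. The lines differed in depth, in the control used and in the log2 difference of *UGT2B17* between arms (0.94 in MEC1, 0.48 in JVM2). The part of each in the larger rise in JVM2 cannot be told apart from that of the line.

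Transcript length moved with the change in JVM2. Ribosomal protein mRNAs are short, with a median of 745 bases, and among the other genes of JVM2 the median log2 fold change was 0.11 for transcripts of up to 500 bases (n = 299), 0.076 for 500 to 1000, 0.042 for 1000 to 2000, -0.018 for 2000 to 4000 and -0.057 above 4000. The members stood above other genes of their own length, with medians of 0.42 (n = 8), 0.42 (n = 52) and 0.38 (n = 18) in the first 3 of these classes. With the trend on length removed, their median log2 fold change in JVM2 was 0.32, 72 were called higher, and 53 had a larger rise in JVM2 than in MEC1. *RPL11*, *RPS2* and *RPS28* then missed the threshold in JVM2 (adjusted *P* = 0.067, 0.057 and 0.052). In MEC1 no such slope was seen, with medians of the other genes between -0.0037 and 0.047.

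**Figure D4:**
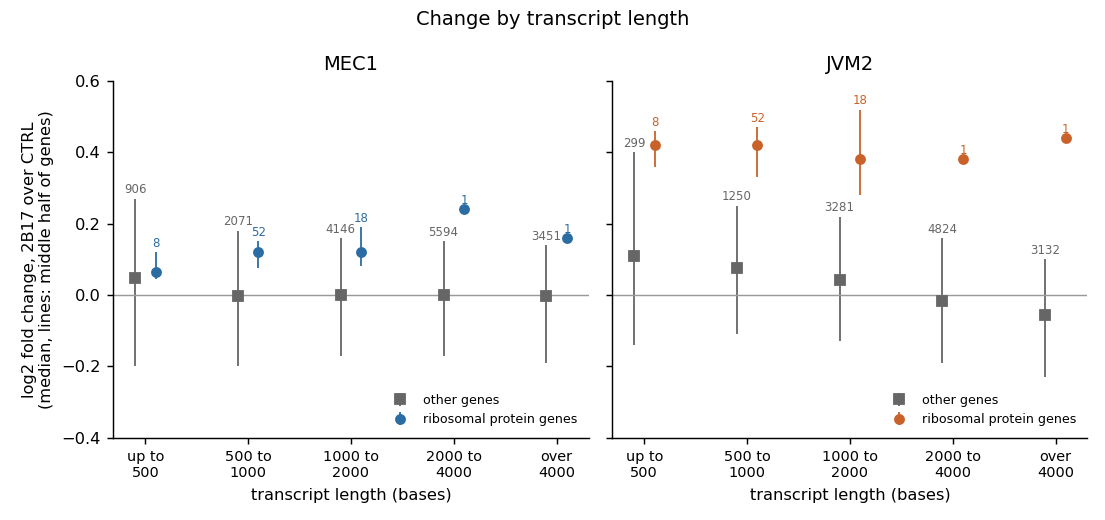
Median log2 fold change, 2B17 over CTRL, by transcript length in bases, for ribosomal protein genes (coloured) and all other genes tested (grey), with lines over the interquartile range and the number of genes above each line. In JVM2 the other genes fall from 0.11 to -0.057 with length, and the ribosomal protein genes stand above them in each class.

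Processed pseudogenes of ribosomal protein genes, which resemble their parent mRNA and can take or lend reads, held few counts. They amounted to 0.391% of the counts of the members in MEC1 and 0.505% in JVM2. The largest share relative to the parent was 6.53% for *RPSA* in MEC1 and 13.8% for *RPS2* in JVM2. In JVM2 9 of 34 pseudogenes tested were higher, where the median of all 34 was 0.40 on the log2 scale, and in MEC1 9 of 68 were higher and 4 lower (median 0.093). Counted with the second *RPL41* identifier, 25.7% were called in JVM2 and 18.8% in MEC1, against 29.3% and 41.7% of all genes tested. Higher calls were made for 14.1% of all genes tested in JVM2 and 20.0% in MEC1. Reads shared between a member and a pseudogene copy cannot be separated here.

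Genes that make, assemble or use the ribosome did not move as one set with its proteins. Translation factors and other mRNAs known to carry a TOP tract (13 tested) rose in both lines, 12 in MEC1 (median log2 fold change 0.20) and 8 in JVM2 (median 0.26), the rest not being called. These were 92.3% and 61.5% of the list, while 20.0% and 14.1% of all genes tested were called higher. *EIF4B*, a cofactor of the initiation helicase, was 0.40 higher in MEC1 (604 ± 10.5 and 797 ± 22.8 CPM, SD, n = 3) and 0.35 higher in JVM2, on the log2 scale. *EIF3E*, a subunit of an initiation factor, rose by 0.29 and 0.47 (adjusted *P* = 2.0e-06 and 8.5e-05). *PABPC1*, the poly(A)-binding protein, rose by 0.29 (adjusted *P* = 5.9e-07) in MEC1 and was not called in JVM2 (0.018, SE 0.094, adjusted *P* = 0.91), where it was called higher without JVM2-2B17 replicate 2 (0.14, adjusted *P* = 0.033). *EEF1B2*, an exchange factor for the elongation factor, was not called in MEC1 (0.063, adjusted *P* = 0.085) and rose by 0.43 (adjusted *P* = 1.8e-04) in JVM2.

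Ribosome assembly factors (30 tested) rose with the ribosomal proteins in MEC1 and not in JVM2. In MEC1 21 were higher and 9 not called (median 0.17), and in JVM2 8 were lower and 22 not called (median -0.068). Calls made up 70.0% of the list in MEC1 and 26.7% in JVM2, against 41.7% and 29.3% of all genes tested. By direction, 20.0% of all genes tested were higher in MEC1 and 15.3% lower in JVM2. *RRS1*, which helps to bring the 5S particle into the large subunit, rose from 34.3 ± 1.31 to 41.7 ± 2.87 CPM in MEC1 (0.28, adjusted *P* = 3.0e-04) and was not called in JVM2 (-0.19, adjusted *P* = 0.11). *RIOK1*, a kinase of small-subunit maturation, had the highest value of the list in JVM2 and was called in neither line (0.023 and 0.22, adjusted *P* = 0.72 and 0.077), although in JVM2 it was called higher without JVM2-2B17 replicate 1 (0.28, adjusted *P* = 0.048). *RRP12*, needed for export of both subunits, rose from 143 ± 10.4 to 162 ± 4.78 CPM in MEC1 (0.18, adjusted *P* = 0.0032) and fell from 57.8 ± 1.13 to 39.5 ± 1.08 CPM in JVM2 (-0.55, adjusted *P* = 5.3e-05). The difference between lines was significant and in this direction for 19 of the 30 (median -0.29), against 15.3% of all genes tested, and was the reverse of that of the ribosomal proteins. With the length trend removed, the same number, 8, was lower in JVM2.

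RNA polymerase I, which transcribes ribosomal RNA, followed a like pattern, with 10 of 11 genes higher in MEC1 (median 0.16) and 2 higher and 3 lower in JVM2 (median 0.038). Calls made up 90.9% of the list in MEC1 and 45.5% in JVM2, against 41.7% and 29.3% of all genes tested. With DESeq2 8 of the 11 were higher in MEC1, and with DESeq2 or with the length trend removed 1 was higher and 2 lower in JVM2. Without MEC1-CTRL replicate 2 the number higher in MEC1 was 6. In JVM2, none was higher without JVM2-CTRL replicate 2 or 3, 1 without JVM2-2B17 replicate 1, and 1 higher with 1 lower without JVM2-CTRL replicate 1. *POLR1E* rose by 0.37 (adjusted *P* = 2.4e-07) in MEC1 and was not called in JVM2 (0.02, adjusted *P* = 0.86). *POLR1C* rose in both lines (0.23 and 0.27, adjusted *P* = 6.8e-04 and 0.027), but the JVM2 call was lost with DESeq2 (adjusted *P* = 0.077), with the length trend removed (0.065) and without JVM2-CTRL replicate 1, 2 or 3 (0.1, 0.055 and 0.074). *POLR1A*, the largest subunit, rose by 0.14 in MEC1 (adjusted *P* = 0.01) and fell by 0.33 in JVM2 (adjusted *P* = 0.013), calls that were lost without MEC1-CTRL replicate 2 (adjusted *P* = 0.087) and JVM2-CTRL replicate 1 (adjusted *P* = 0.057). Of 8 chaperones that escort single ribosomal proteins, 3 were higher and 2 lower in MEC1, and 1 was lower in JVM2. *GRWD1*, the escort of RPL3, rose by 0.20 (adjusted *P* = 0.0062) in MEC1 and fell by 0.23 (adjusted *P* = 0.013) in JVM2, the only such call there, which was lost with DESeq2 (adjusted *P* = 0.055) and without JVM2-CTRL replicate 2 (adjusted *P* = 0.074). *TSR2*, the escort of RPS26, fell in MEC1 (-0.25, adjusted *P* = 1.9e-04), where *RPS26* itself, looked up for this reason, was at 252, 256 and 273 CPM in MEC1-CTRL and 260, 260 and 258 in MEC1-2B17 (-0.009, adjusted *P* = 0.87).

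Of 15 genes that control ribosomal protein mRNA or link the ribosome to p53, 7 were higher and 1 lower in MEC1, and 1 higher and 2 lower in JVM2. These calls made up 53.3% of the list in MEC1 and 20.0% in JVM2, against 41.7% and 29.3% of all genes tested. In MEC1, 4 of the 15 were higher without MEC1-CTRL replicate 2 or MEC1-2B17 replicate 1. In JVM2, none was higher and 1 lower with DESeq2 or without JVM2-CTRL replicate 2, 1 was lower without JVM2-CTRL replicate 3, none was higher without JVM2-2B17 replicate 1, and 2 were higher and 4 lower without JVM2-2B17 replicate 2. *MYC* rose from 294 ± 4.98 to 415 ± 16.7 CPM in MEC1 (0.50, SE 0.036, adjusted *P* = 2.0e-09), and was at 154 ± 4.16 and 172 ± 21.1 CPM in JVM2 (0.16, SE 0.081, adjusted *P* = 0.17), where it was called higher without JVM2-2B17 replicate 2 (0.25, adjusted *P* = 6.9e-04). *TSC1*, an inhibitor of the mTOR pathway that lies on the long arm of chromosome 9, fell in MEC1 (-0.31, adjusted *P* = 7.3e-06). *MTOR* fell from 128 ± 2.75 to 93.5 ± 4.07 CPM in JVM2 (-0.46, SE 0.059, adjusted *P* = 9.3e-05) and was at 208 ± 5.98 and 208 ± 6.11 CPM in MEC1 (0.004, SE 0.037). *RHEB*, which activates mTOR, was higher in both lines (0.12 and 0.26, adjusted *P* = 0.038 and 0.015), but neither call held with DESeq2 (adjusted *P* = 0.077 and 0.069). The MEC1 call was also lost with library size only (adjusted *P* = 0.051) and without MEC1-CTRL replicate 1 or 2 or MEC1-2B17 replicate 1 or 2 (0.057 to 0.15), and the JVM2 call with the length trend removed (0.078) and without JVM2-CTRL replicate 2 or JVM2-2B17 replicate 1 (0.074 and 0.053). With the length trend removed, none of the 15 was called higher and 2 were called lower in JVM2.

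**Figure D5:**
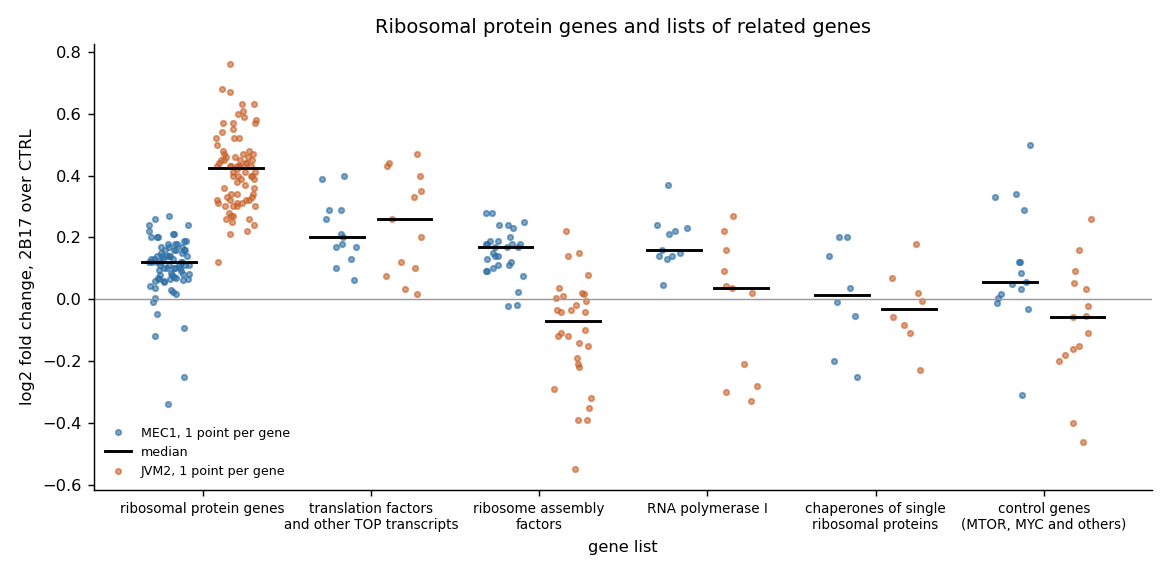
Log2 fold change, 2B17 over CTRL, of each gene (points) of the ribosomal protein genes and of 5 lists of related genes in MEC1 (blue) and JVM2 (orange), with the median of each list as a black bar. Medians of the ribosomal protein genes and of the translation factors are above 0 in both lines, whereas that of the assembly factors is 0.17 in MEC1 and -0.068 in JVM2.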

How the data were processed

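RNA from 12 libraries, 3 replicates of each of 4 populations, was sequenced after depletion of ribosomal RNA. The authors trimmed, aligned and counted reads with the MUGQIC pipeline, and per the labels (the submitters' processing notes) Trimmomatic, TopHat2 2.0.14, HTSeq and hg38 were used. They deposited raw counts per Ensembl gene for each line, with at least 10 counts over its 6 libraries. The annotation release, strand setting and treatment of multi-mapping reads are not given in the sources used here, so members with pseudogenes, read-through genes or close partners may have gained or lost reads. The deposited fold changes and P-values of the authors' own comparisons (edgeR and DESeq2) and 12 columns of rounded normalized values were not used.

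Counts were fitted per line with edgeR 4.0.16 in R 4.3.3 (TMM scaling, filterByExpr at its defaults, that is 10 counts per library in enough libraries and 15 in total, quasi-likelihood F-test), 3 libraries against 3, with Benjamini-Hochberg adjustment over all genes tested and calls below 0.05. CPM are counts divided by the TMM-scaled library size, TMM factors lay between 0.984 and 1.01, and the line difference was tested as an interaction in 1 fit of all 12 libraries. Positions, transcript lengths (median of basic transcripts) and gene types came from GENCODE release 44, and start windows from RefSeq. The methods were run on simulated counts with a common dispersion for all genes of a line. Of the genes changed, 82.8% were called in MEC1, 84.8% in JVM2 and 61.1% for the interaction. Changes as small as the median of the members in MEC1 were not simulated. The members and lists were chosen with earlier results of these data known. Members were named where they lie on the long arm of chromosome 9, were among the 5 highest or lowest of a line or the 5 largest interaction terms, were called in opposite directions, or have a role of their own. Of other lists the genes at the ends of each line were named, and *RPL31*, *RPL10A*, *RPL36A* and *RPS26* were added after their values were seen. Some genes of these lists are not reported here.

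Alternatives were DESeq2 1.42.0, edgeR's exact test, both of these together, other scalings (RLE, library size alone, scaling from the other genes), other filters on low counts, offsets for transcript length and GC content, the replicate number as a block, and each library left out in turn.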

Additional observations from a re-analysis of the deposited data

Results flagged for a closer look

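The rise of 66 ribosomal protein genes was larger in JVM2 than in MEC1 by the interaction of line and arm, while 15 members did not pass an adjusted P of 0.05. The 5 members with the largest interaction terms, on the log2 scale and as JVM2 minus MEC1, were *RPL35* (0.78), *RPL7A* (0.63), *RPS18* (0.61), *RPS10* (0.60) and *RPS3A* (0.56). *RPL35* and *RPL7A* changed in opposite directions in the lines, *RPS10* was not called in MEC1, and *RPS18* and *RPS3A* rose in both. The counts of *RPS10* depend on how reads shared with its read-through gene, listed in MEC1 only, were assigned. The MEC1 and JVM2 controls carried different constructs, and *UGT2B17* differed more between the arms in MEC1 than in JVM2. The part of either in the difference cannot be told apart from that of the line.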

How the results depend on the processing

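With edgeR's exact test, and with the rule that the exact test and DESeq2 both pass, 37 members were higher in MEC1 and 35 in both lines, against 56 and 54 in the quasi-likelihood test. The cause was not tested. The offset for transcript length lowered the JVM2 median log2 fold change to 0.32. The 2 members called in opposite directions, *RPL35* and *RPL7A*, were so called under all alternatives run. Deviations of same-numbered libraries correlated by -0.0422 to 0.04 in MEC1 and -0.00594 to 0.117 in JVM2. Those of other-numbered libraries correlated by -0.0749 to 0.0853 in MEC1 and -0.117 to 0.0623 in JVM2. Same-numbered libraries thus stood out in MEC1 by no higher correlation. In JVM2 the highest value was of a same-numbered pair, and whether the numbers pair samples there cannot be told from these values. With the replicate block 55 members were higher in MEC1, 76 in JVM2 and 53 in both, 70 rose more in JVM2, and *RPL22* and *RPLP0* passed the threshold of the line difference (0.18 and 0.12). The MEC1 call of *RHEB* was lost with the block (adjusted P = 0.052).

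With single libraries left out, members called higher ranged from 47 to 56 in MEC1 (lower 2 to 3) and from 71 to 78 in JVM2, those higher in both lines from 46 to 56, and those with a larger rise in JVM2 from 56 to 72. The median log2 fold change ranged from 0.11 to 0.13 in MEC1 and from 0.40 to 0.45 in JVM2. All genes called ranged from 5936 to 6606 in MEC1, from 2687 to 4541 in JVM2 and from 4231 to 5063 for the line difference. The line difference of *RPL28*, -0.054 with all libraries, was 0.18 (adjusted P = 0.038) without replicate 2 of JVM2-2B17 and reached -0.18 without replicate 1. Total counts per library were lower and the spread wider in JVM2 than in MEC1.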
